A study of Arabidopsis thaliana with 6 samples.

Results

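SQUAMOSA PROMOTER BINDING PROTEIN-LIKE (SPL) transcription factors of the age pathway were followed in leaf RNA of Arabidopsis thaliana. The members are 10 gene loci, chosen by locus identifier for their place in the pathway: SPL2 (AT5G43270), SPL3 (AT2G33810), SPL4 (AT1G53160), SPL5 (AT3G15270), SPL6 (AT1G69170), SPL9 (AT2G42200), SPL10 (AT1G27370), SPL11 (AT1G27360), SPL13 (AT5G50570) and SPL15 (AT3G57920). They are 10 of 27655 loci in the tables. Each locus was measured as the sum over its transcript models. Of the 10 members, 8 had at least 20 reads over both libraries and are called measured, and the other 2 had 0 reads in both.

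The comparison is between plants labelled jmj16 and wild type plants, with 1 RNA-seq library each. The jmj16-1 line carries an insertion (SAIL_535_F09) in JMJ16, a gene for a histone demethylase acting on lysine 4 of histone H3, and both genotypes have the Col-0 background. Leaves 5 and 6 were taken fully expanded and without visible yellowing, from plants that spent 6 days on MS plates before moving to soil, at 22 °C and under days of 16 h light and nights of 8 h. The plants' age is given as 4 weeks in one label and 5 weeks in another, and the number of plants per library is not given in the labels. With 1 library per genotype there is no replicate error. Every interval below is a 95% counting interval, which leaves out variation between plants and libraries, and no p-value is given.

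SPL proteins share the SBP domain, a zinc-binding fold that recognises DNA with a GTAC core. In young plants the microRNA miR156 holds most SPL transcripts down. As the shoot ages miR156 declines and SPL levels rise, which moves the plant into its adult leaf form and towards flowering. SPL9 and its relatives also switch on miR172, which in turn restrains floral repressors of the AP2 type. The series title links JMJ16 to leaf senescence, and the age pathway is one measure of a leaf's developmental state.

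The jmj16-labelled library held 13844284 estimated reads and the wild type library 10643186. JMJ16 itself (AT1G08620, taken from general knowledge since the gene table lists that locus as PKDM7D) had 168 reads in the jmj16-labelled library and 188 in wild type, a log2 ratio of -0.63 (-0.94 to -0.33) after scaling. Its most abundant transcript alone gave -1.23, and correction for transcript length turned the sign, to 0.37 (0.06 to 0.68). Its level therefore does not check the label. Mesophyll markers were abundant: 5 of 5 were measured, with a summed level of 15576 TPM in the jmj16-labelled library and 23221 TPM in wild type. Shoot apex markers were nearly absent, at 0.03 TPM in the jmj16-labelled library and 0.10 TPM in wild type over 4 genes. Among them WUS and CLV3 were at 0 in both libraries, and STM was at 0 in the jmj16-labelled library and had 1 read in wild type. The 6 floral organ markers summed to 4.02 TPM in the jmj16-labelled library and 7.69 TPM in wild type, of which SEP3 gave 2.31 TPM in the jmj16-labelled library and 3.91 TPM in wild type.

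Among the 8 measured members SPL3 was the most abundant in both libraries, and it had the highest ratio of the jmj16-labelled library to wild type. SPL13, read through its second copy, had a ratio higher still and is described apart. SPL4 had fewer scaled reads in the jmj16-labelled library. The remaining 6 lay closer to a ratio of 1 than SPL4, and the intervals of 5 of them included it, SPL11 being the exception. None of the 8 measured members differed by 2-fold or more. The call used here asks for a ratio of 2-fold or more after TMM scaling of the libraries, with a counting interval that leaves out 1. By this rule 0 of 8 members were higher, against 7.22% of all 17151 measured genes, and 0 of 8 were lower, against 10.6%. With 8 members, such shares would leave few calls to find.

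**Figure D1:**
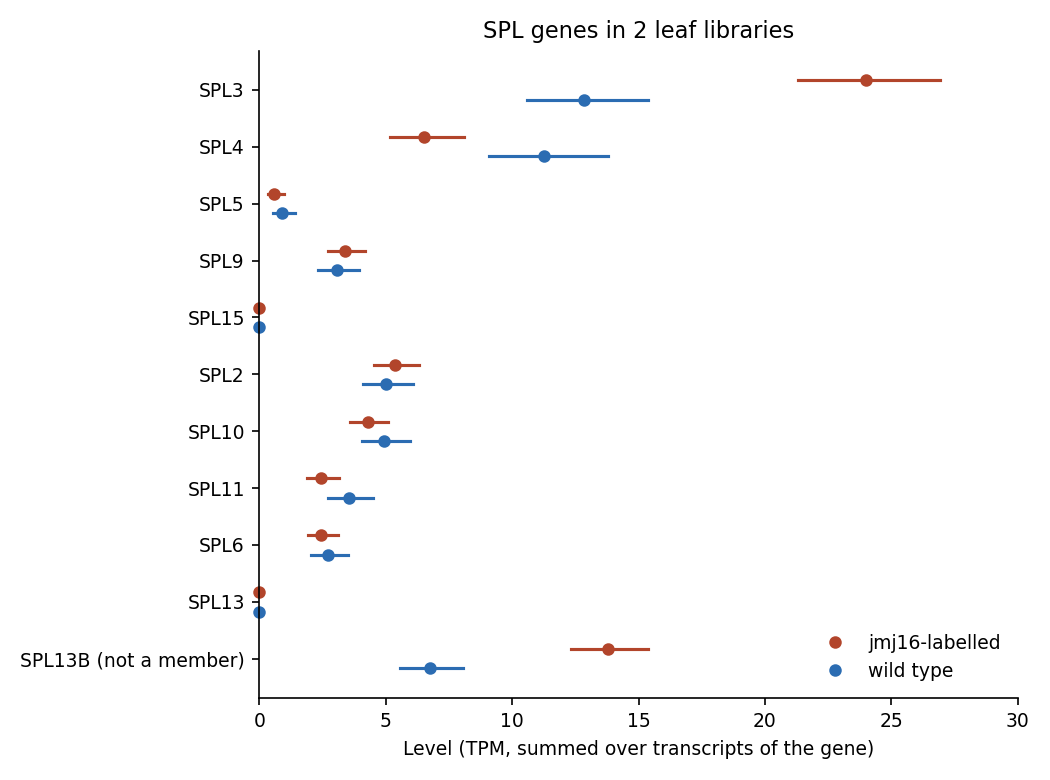
Level of each SPL gene in TPM (reads scaled for transcript length and library size) in the jmj16-labelled library (upper point of each pair) and in wild type (lower point). Lines are 95% Poisson intervals of the read count scaled to TPM. SPL3 stands highest in both libraries, and SPL13 and SPL15 are at 0, drawn without an interval. SPL13B is the second copy of SPL13 and is not among the 10 members.

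Compared per transcript length, the members spanned a wide range of levels. In the jmj16-labelled library SPL3 led at 24.0 TPM (21.3 to 26.9), followed by SPL4 at 6.52 TPM (5.18 to 8.10), SPL2 at 5.36 TPM, SPL10 at 4.28 TPM, SPL9 at 3.39 TPM, SPL11 at 2.45 TPM, SPL6 at 2.45 TPM and SPL5 at 0.588 TPM (0.336 to 0.955). In wild type the order was SPL3 at 12.8 TPM (10.6 to 15.4), SPL4 at 11.2 TPM (9.07 to 13.8), SPL2 at 5.02 TPM, SPL10 at 4.94 TPM, SPL11 at 3.52 TPM, SPL9 at 3.06 TPM, SPL6 at 2.71 TPM and SPL5 at 0.895 TPM (0.530 to 1.41). Neighbours in the order from SPL4 down to SPL6 had overlapping intervals in the jmj16-labelled library. In wild type SPL3 and SPL4 overlapped each other, as did neighbours from SPL2 down to SPL6. SPL5 stood below all of them in both libraries. Among all 27655 loci SPL3 lay at percentile 82.7 of TPM in the jmj16-labelled library and 75.6 in wild type, and SPL5 at percentile 38.5 in the jmj16-labelled library and 41.3 in wild type.

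Added over the 10 members, the level was 49.0 TPM in the jmj16-labelled library and 44.2 TPM in wild type. The members' summed reads were 883 in the jmj16-labelled library and 619 in wild type, a log2 ratio of 0.04 (-0.11 to 0.19) after scaling. The make-up of that sum differed between the libraries. SPL3 took 48.9% of the members' TPM in the jmj16-labelled library and 29.0% in wild type. SPL4 took 13.3% in the jmj16-labelled library, against 25.4% in wild type. SPL13 enters this sum at 0, and the values with its second copy follow with SPL13. In leaf tissue as a whole, fewer cells of a type and less RNA per cell cannot be told apart.

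SPL3, SPL4 and SPL5 encode the smallest SPL proteins, little more than the SBP domain, and promote floral meristem identity together with the florigen complex. SPL3 had 289 reads in the jmj16-labelled library (257 to 324) and 117 in wild type (96.8 to 140), before scaling. After scaling it was 1.78-fold higher in the jmj16-labelled library (1.43 to 2.23), a log2 ratio of 0.83 (0.52 to 1.16), which did not reach 2-fold. SPL4 had 81 reads in the jmj16-labelled library (64.3 to 101) and 93 in wild type (75.1 to 114). After scaling to the larger jmj16-labelled library it was 1.59-fold lower (1.17 to 2.17), a log2 ratio of -0.67 (-1.12 to -0.23). SPL3 and SPL4 thus lay on opposite sides of 0, with intervals of the log2 ratio that do not overlap. SPL5 had 16 reads in the jmj16-labelled library and 18 in wild type, and its log2 ratio of -0.64 (-1.71 to 0.41) included 0. That interval still holds ratios of more than 2-fold in the lower direction. It leaves out the error of a split of reads with the overlapping AT3G15260, described below.

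SPL9 and SPL15 form a pair of close relatives that slow the pace of leaf initiation and drive the change to adult leaves, and SPL9 binds the MIR172B and SOC1 genes. SPL9 had 85 reads in the jmj16-labelled library (67.9 to 105) and 58 in wild type (44.0 to 75.0). Its log2 ratio was 0.08 (-0.42 to 0.59), so that after scaling the libraries could not be told apart at this depth. SPL15, which promotes flowering at the shoot apex, was listed at 0 reads in the jmj16-labelled library and at 0 in wild type. Taken as a one-sided 95% limit, which differs from the intervals of the other counts, a count of 0 allows up to 3 reads, which would be 0.151 TPM in the jmj16-labelled library and 0.200 TPM in wild type. This floor, too, covers counting error only. The gene table shows SPL15 overlapping AT3G57910, which was listed with 35.0 reads in the jmj16-labelled library and 49.0 in wild type. Whether reads of SPL15 were given to that neighbour was not tested.

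SPL2, SPL10 and SPL11 make up another clade, which shapes the leaf blade and acts in shoot maturation. SPL10 and SPL11 lie next to each other, with 0 genes between them in the gene table. SPL2 had 147 reads in the jmj16-labelled library (124 to 173) and 103 in wild type (84.1 to 125), a log2 ratio of 0.04 (-0.33 to 0.42). SPL10 had 135 reads in the jmj16-labelled library (113 to 160) and 108 in wild type (88.6 to 130), a log2 ratio of -0.15 (-0.53 to 0.23). For both the interval includes 0. SPL11 had 62 reads in the jmj16-labelled library (47.5 to 79.5) and 65 in wild type (50.2 to 82.9). It was 1.45-fold lower (1.01 to 2.09), and the interval of its log2 ratio of -0.54 (-1.07 to -0.02) only just left out 0. Upper-quartile and total-count scaling put the ratio at -0.51 and -0.45, and an interval moved by the same shift includes 0. Median-of-ratios scaling put the ratio at -0.55. After length correction it was -0.58 (-1.10 to -0.05), an interval that leaves out 0. As relatives, these genes can share reads, so the split between them is an estimate.

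SPL6, which in Arabidopsis has been tied to resistance against bacteria more than to shoot form, had 68 reads in the jmj16-labelled library (52.8 to 86.2) and 57 in wild type (43.2 to 73.9). Its log2 ratio was -0.22 (-0.75 to 0.32), an interval that includes 0. Over the 8 measured members, under TMM scaling, 1 interval lay wholly above 0, 2 lay wholly below it and 5 included it. Of all measured genes 30.8% had an interval above 0 and 30.2% one below. At a fold of 1.5 in place of 2, SPL3 was called higher and SPL4 lower, which is 1 of 8 in each direction, against 16.4% higher and 19.6% lower of all measured genes. The median log2 ratio of the measured members was -0.19 and that of all measured genes 0.02.

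**Figure D2:**
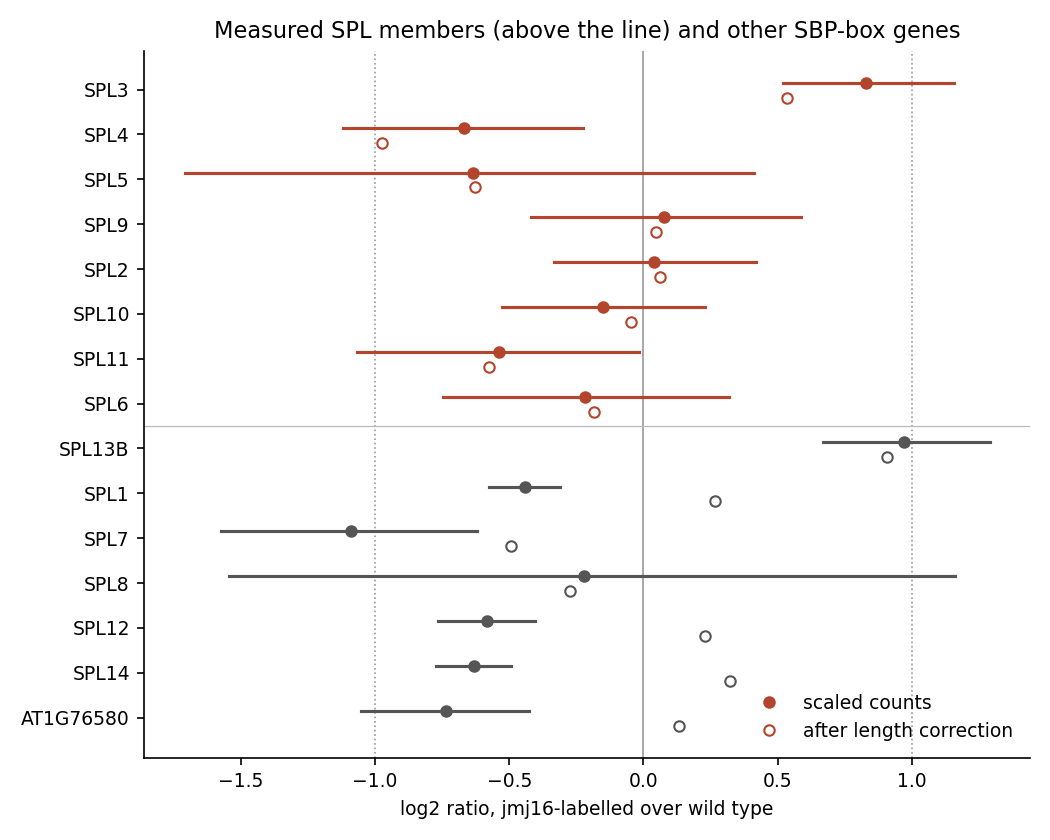
Ratio (log2, jmj16-labelled over wild type) for the 8 measured SPL members (red) and 7 other SBP-box genes (grey). Filled points are TMM-scaled counts with their 95% counting intervals, open points the ratios after correction for transcript length, and dotted lines mark 2-fold. SPL3 is the member furthest to the right and SPL4 the one furthest to the left. Length correction moves the long SPL1, SPL12, SPL14 and AT1G76580 across 0.

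SPL13 could not be read from its own locus. In the Arabidopsis genome SPL13 exists as a near-identical pair, SPL13A (AT5G50570, the member) and SPL13B (AT5G50670). The tables list AT5G50570 at 0 reads in the jmj16-labelled library and at 0 in wild type, for each of its 2 transcript models. SPL13B was listed with 327 reads in the jmj16-labelled library (293 to 364) and 120 in wild type (99.5 to 143), or 13.8 TPM in the jmj16-labelled library and 6.73 TPM in wild type. After TMM scaling of its counts it was 1.96-fold higher in the jmj16-labelled library (1.59 to 2.44), a log2 ratio of 0.97 (0.67 to 1.29) just under the 2-fold limit. Scaled by total counts it was 1.06 and passed.

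The transcripts of the SPL13 copies differ in length, from 1938 to 2308 nt for SPL13A and from 1659 to 1817 nt for SPL13B. Of the copies, only SPL13B was assigned reads by Salmon, which divides reads among the transcripts they fit. Other duplicated loci of the same stretch were treated in different ways. AT5G50520 and AT5G50630, both 1839 nt, each had 288.5 reads in the jmj16-labelled library and 137 in wild type. AT5G50550 and AT5G50650, both 1673 nt, each had 89.7 reads in the jmj16-labelled library and 48.6 in wild type. AT5G50580, with models of 1303 and 1474 nt, was listed at 0 in both libraries, while AT5G50680.1 (1432 nt) had 98.0 reads in the jmj16-labelled library and 75.4 in wild type and AT5G50680.2 (1275 nt) had 366 in the jmj16-labelled library and 313 in wild type. What decides the assignment was not tested. The value of SPL13B is therefore read here as that of the SPL13 pair, leaving out any reads given to overlapping genes. The 0 of SPL13A does not show that this copy is silent. SPL13 acts with SPL9 and its relatives in the change from juvenile to adult leaves. Taken as 1 gene, the pair stood between SPL3 and SPL4 in level in the jmj16-labelled library and below SPL4 in wild type, with no overlap of intervals with SPL4 in either library. With SPL13B included, the summed log2 ratio over 11 loci was 0.24 (0.11 to 0.37), from 1210 reads in the jmj16-labelled library and 739 in wild type, so that this sum was higher in the jmj16-labelled library. SPL3 then took 38.2% of the TPM in the jmj16-labelled library and 25.2% in wild type, SPL4 took 10.4% in the jmj16-labelled library and 22.1% in wild type, and SPL13B took 22.0% in the jmj16-labelled library and 13.2% in wild type.

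The annotated spans of several members overlap those of other genes. With no strand setting stated, reads from a stretch that both transcripts share cannot be told apart. Whether the exons overlap, and how far, was not examined in the annotation. SPL3 overlaps the long noncoding RNA AT2G33815, SPL4 overlaps MIR156i and SPL9 overlaps MIR156j. These 3 RNAs are not among the transcripts of the tables. SPL5 overlaps the protein-coding AT3G15260, which had 886 reads in the jmj16-labelled library and 441 in wild type, many more than SPL5 itself. Before rounding SPL5 had 15.7118 reads in the jmj16-labelled library and 18.1085 in wild type, and AT3G15260 had 886.288 and 440.892. In each library the fractions of both genes make up a whole read to within rounding, as where reads are divided between them. The counting interval of SPL5 leaves out the error of such a split. SPL6 overlaps CRC, which was at 0 in both libraries. SPL13A overlaps the protein-coding AT5G50565, which had 81.0 reads in the jmj16-labelled library and 75.9 in wild type. Whether reads of SPL13A were given to that neighbour was not tested.

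Transcript models gave a second view of SPL4. In the jmj16-labelled library 83.1% of its estimated reads went to AT1G53160.2 (957 nt), 16.9% to AT1G53160.1 (1365 nt) and 0 to AT1G53160.3 (893 nt). In wild type 78.0% went to AT1G53160.3, which is 72.6 reads, and 19.0% to AT1G53160.2. AT1G53160.2 had 67.3 reads in the jmj16-labelled library and 17.7 in wild type. The 3 models are short and rest on 81 reads in the jmj16-labelled library and 93 in wild type, and their split is an estimate whose error the tables do not give. The 0 of AT1G53160.3 is such an assignment, so no fold is given for it.

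Other members with several models kept the same leading one in both libraries. SPL2 had 61.7% of its reads on AT5G43270.2 in the jmj16-labelled library and 65.7% in wild type. SPL10 had 45.1% on AT1G27370.7 in the jmj16-labelled library and 60.8% in wild type, while AT1G27370.5 held 35.5% in the jmj16-labelled library and 25.5% in wild type. For SPL11 the share of AT1G27360.2 was 83.7% in the jmj16-labelled library and 92.4% in wild type. SPL3, SPL5, SPL6, SPL9 and SPL15 have 1 model each.

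**Figure D3:**
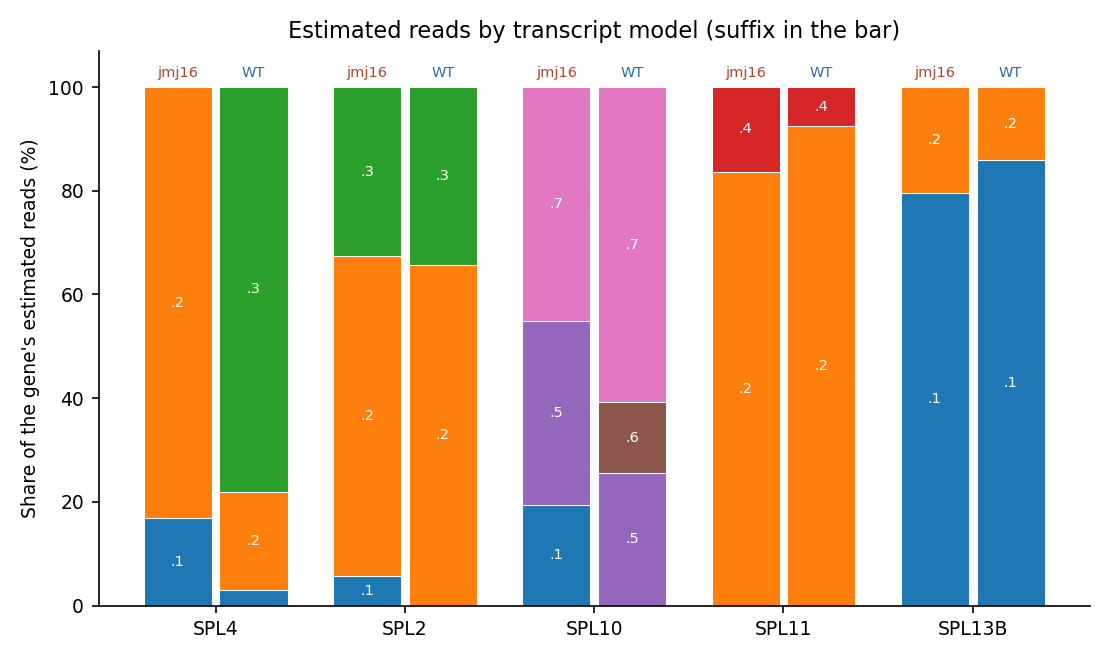
Share of each gene's estimated reads given to each of its transcript models, in percent, for the jmj16-labelled library (left bar of each pair) and wild type (WT, right bar). Numbers in the bars are the suffixes of the transcript identifiers. In SPL4 the leading model is AT1G53160.2 in the jmj16-labelled library and AT1G53160.3 in wild type, while the other 4 genes keep their leading model.

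Transcript length moved with the ratio across the whole data set and touches these genes. The tenth of measured genes with the shortest transcripts had a median log2 ratio of 0.38 and the tenth with the longest -0.87. SPL3 and SPL4 are short, at 981 and 946 nt, where the trend lies at 0.29 and 0.30. After subtraction of the trend SPL3 had a log2 ratio of 0.54 (0.22 to 0.86) and SPL4 one of -0.97 (-1.42 to -0.53). The other 6 measured members are 1761 to 2071 nt long, and of these SPL10 shifted the furthest, to -0.05 (-0.42 to 0.33). Corrected in this way, 0 of 8 members were higher, against 6.24% of all measured genes, and 0 of 8 were lower, against 6.61%. The cause of the length trend was not tested.

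**Figure D4:**
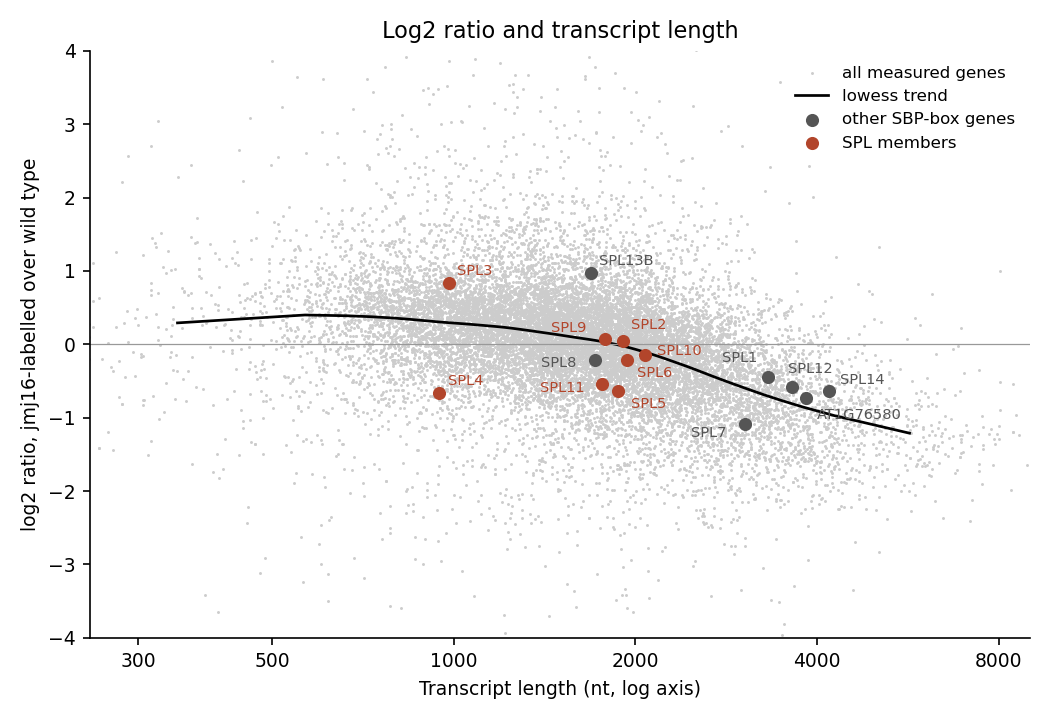
Ratio (log2, jmj16-labelled over wild type) against transcript length in nt (log axis) for measured genes (light grey), with the lowess trend as a black line. Of 17151 genes, 136 lie outside the axes. SPL3 lies above the trend and SPL4 below it at nearly equal length, and most other SBP-box genes lie at the long end.

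SBP-box genes outside the set lack a miR156 site, apart from SPL13B, and most of them encode long proteins. Of the 7, 0 were higher, against 7.22% of all measured genes, and 1 was lower, against 10.6%. Their median log2 ratio was -0.58, or 0.23 after length correction. SPL7, the regulator of the copper deficiency response, had 63 reads in the jmj16-labelled library and 97 in wild type and was 2.13-fold lower (1.54 to 2.98). It did not pass after length correction, with a log2 ratio of -0.49. SPL14, tied to sensitivity to a fungal toxin, had 794 reads in the jmj16-labelled library and 887 in wild type, with a log2 ratio of -0.63 (-0.77 to -0.49) that became 0.32 after length correction. SPL1 and SPL12, which protect flowers from heat, had log2 ratios of -0.44 (-0.57 to -0.31) and -0.58 (-0.76 to -0.40), or 0.26 and 0.23 after correction. AT1G76580, placed in this list from general knowledge, had a log2 ratio of -0.74 (-1.05 to -0.43), or 0.13 after correction. SPL8, a gene of anther development, had 12 reads in the jmj16-labelled library and 10 in wild type. For 4 of the 7 the sign therefore rests on how length is treated, which was so for 0 of the 8 measured SPL members.

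MicroRNAs stand above the SPL genes, and their precursor loci (8 of MIR156 and 5 of MIR172) are not among the transcripts of the tables. Of 13 genes of microRNA production, action and turnover, 0 were higher, against 7.22% of all measured genes, and 3 lower, against 10.6%, and the list had a median log2 ratio of -0.42. DCL1, the nuclease that cuts microRNA precursors, had 109 reads in the jmj16-labelled library and 233 in wild type and was 2.96-fold lower (2.35 to 3.76). TGH, which assists DCL1, was 2.89-fold lower (2.08 to 4.07), and SDN1, which degrades mature microRNAs, was 2.61-fold lower (1.27 to 5.86) on 12 reads in the jmj16-labelled library and 23 in wild type. After length correction 1 was lower, against 6.61% of all measured genes, and 1 higher, against 6.24%. The lower one was SDN1, with transcripts of 1365 nt, at a log2 ratio of -1.56 (-2.73 to -0.52). The higher one was HST, at 1.35 (0.95 to 1.77). DCL1 transcripts average 5927 nt, and its corrected log2 ratio was -0.32 (-0.67 to 0.01).

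Regulators of the MIR156 genes were listed as 14 chromatin factors, sugar sensors and transcription factors, of which 13 were measured. Of these 0 were higher, against 7.22% of all measured genes, and 6 lower, against 10.6%, and the median log2 ratio was -0.81. SWN, a Polycomb methyltransferase of lysine 27 of histone H3, had 71 reads in the jmj16-labelled library and 199 in wild type and was 3.87-fold lower (2.95 to 5.17). PKL, a chromatin remodeller, was 3.68-fold lower (2.89 to 4.75), and BRM, another remodeller, was 2.76-fold lower (2.26 to 3.40). These transcripts are long, with a median of 3400 nt over the list. After length correction the list's median was 0.08 and 1 member was lower, against 6.61% of all measured genes: SWN, with a log2 ratio of -1.38 (-1.80 to -0.99).

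Below the SPL genes, miR172-targeted AP2-like factors had a median log2 ratio of 0.59, with 1 of 5 measured genes higher and 0 lower, against the same 7.22% and 10.6% of all measured genes, which also stand beside the counts of the lists that follow. AP2, which specifies flower organs and also restrains flowering, had 614 reads in the jmj16-labelled library and 143 in wild type and was 3.09-fold higher (2.58 to 3.74). Its log2 ratio of 1.63 was 1.61 after length correction. TOE1, a repressor of flowering listed as RAP2.7 in the gene table, had 1568 reads in the jmj16-labelled library and 664 in wild type and was 1.70-fold higher (1.55 to 1.87), under the limit. Of the 5 measured genes 3 had a log2 ratio above 0 and 2 below it. The third above 0 was TOE3, at 0.59 (0.11 to 1.09). After length correction TOE3 was at 0.44 (-0.03 to 0.95), an interval that includes 0, and the list's median was 0.44. SNZ had 148 reads in the jmj16-labelled library and 172 in wild type. Its log2 ratio was -0.69 (-1.02 to -0.36), or -0.83 after length correction. For TOE2 it was -0.11 (-0.41 to 0.19). SMZ was at 0 in both libraries.

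Flowering genes that SPL proteins bind or work with showed 0 of 4 measured members higher and 0 lower, around a median log2 ratio of 0.05. After length correction this median was -0.20. SOC1, the MADS-box integrator of flowering signals listed as AGL20, had 1619 reads in the jmj16-labelled library and 1334 in wild type. Its log2 ratio was -0.19 (-0.30 to -0.09), or -0.34 (-0.45 to -0.24) after length correction. FUL, a MADS-box gene of the inflorescence and fruit listed as AGL8, had 218 reads in the jmj16-labelled library and 94 in wild type. Its log2 ratio was 0.74 (0.39 to 1.11), or 0.50 (0.15 to 0.87) after length correction. Small MYB proteins that repress trichomes, some of them SPL9 targets, had 1 of 4 measured members higher, 1 lower and 2 neither. TRY was 3.97-fold lower (1.70 to 11.6) on 7 reads in the jmj16-labelled library and 21 in wild type. ETC3, listed as CPL3, was 2.23-fold higher (1.11 to 5.26) on 32 reads in the jmj16-labelled library and 10 in wild type, and did not pass after length correction. TCL2, on 53 reads in the jmj16-labelled library and 68 in wild type, had a log2 ratio of -0.83 (-1.38 to -0.29). After length correction TCL2 was at -1.21 (-1.76 to -0.68). Corrected in this way, 0 of these 4 were higher, against 6.24% of all measured genes, and 2 were lower (TRY and TCL2), against 6.61%. The list's median log2 ratio was -0.54, or -0.92 after correction.

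**Figure D5:**
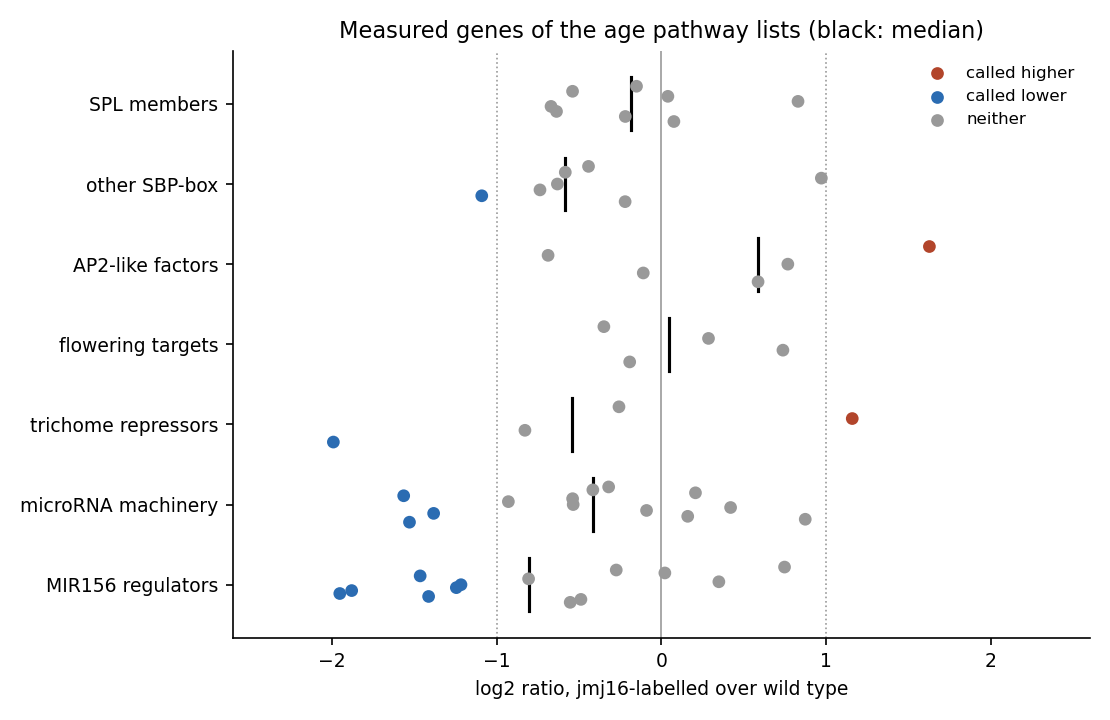
Ratio (log2, jmj16-labelled over wild type) for the measured genes of the SPL set and of 6 lists around it. Each point is a gene, red where called higher, blue where called lower and grey where neither, and black bars are medians. The SPL members hold no called gene, and blue points gather in the microRNA and MIR156 regulator lists. The median transcript lengths of these lists are 2654 and 3400 nt, against 1632 nt for all measured genes, but SDN1 among the blue points has 1365 nt.

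Markers of other tissues also differed between the libraries, and their part in the SPL values was not tested. Of 5 mesophyll markers 0 were higher, 1 lower and 4 neither. CA1, a carbonic anhydrase, was 3.96-fold lower (3.84 to 4.09), while RBCS1A and RCA had log2 ratios of -0.57 and -0.89. Of 3 measured floral organ markers 1 was lower, SEP1, with 2 reads in the jmj16-labelled library and 35 in wild type, and SEP3 had 37 in the jmj16-labelled library and 44 in wild type. Its relative SEP2, not among the 3, had 16 reads in the jmj16-labelled library and 0 in wild type. None of the 4 shoot apex markers was measured, and KNAT1 and STM, the most read of them, had 1 and 0 reads in the jmj16-labelled library against 1 each in wild type. Of 4 vascular markers 2 were higher: XCP1 at 3.47-fold (1.42 to 12.5) and XCP2 at 3.07-fold (1.93 to 5.29). The other 2, the phloem genes SUC2 and APL, had log2 ratios of -0.47 (-0.54 to -0.40) and -0.60 (-0.86 to -0.34), and the 4 summed to 130 TPM in the jmj16-labelled library and 166 TPM in wild type. Of 4 epidermis and guard cell markers 3 were lower: PDF2 by 2.18-fold (1.82 to 2.61), KAT1 by 2.11-fold (1.58 to 2.84) and FAMA, just past the limit, with 110 reads in the jmj16-labelled library and 159 in wild type, and none of these passed after length correction.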

How the data were processed

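The authors deposited 1 table per RNA-seq library, in the layout of Salmon per the file headers, with an estimated count of reads and a TPM value for each of 48359 transcript models. TPM, scaled by effective length and by the library's own sum, was used as deposited by the authors. The labels' build is TAIR10, and Bowtie2, SAMtools, TopHat2, Salmon and deepTools appear in the list of tools, with neither version nor role, per the submitters' processing notes. The sources used here give no annotation release, strand setting or trimming step. Transcript lengths and effective lengths, as deposited, are equal in both libraries. The 4 ChIP-seq samples were not analysed here.

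Estimated counts and TPM were summed per locus and counts were then rounded. RefSeq (assembly TAIR10.1) gave the symbols, with 27445 loci matched, and no coordinates are printed because the build names differ. Libraries were scaled by TMM (factors 1.03 for jmj16 and 0.969 for wild type, edgeR 4.0.16 in R 4.3.3, used for scaling only). Log2 ratios had 0.5 added to each count. Intervals of ratios are exact Clopper-Pearson and those of counts exact Poisson. The length trend is a lowess fit (span 0.3) on log10 effective length. Calculations used Python 3.11.15, scipy 1.17.1 and statsmodels 0.14.6, and the calls were tested on simulated data. The unit was as planned. Members and lists were chosen with earlier results of these data known. Genes named were all SBP-box genes, JMJ16 and, per other list, up to 3 passing members by size, or the 2 most read where fewer than 2 passed. Genes named beyond this were added after their values were seen. They are HST, SMZ, SNZ, TOE2, TOE3, TCL2, SEP2, SUC2, APL, WUS, CLV3 and the loci overlapping members or lying near SPL13. No genes were named for a pattern like the members', since likeness over 2 libraries has no meaning.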

Additional observations from a re-analysis of the deposited data

How the results depend on the processing

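Alternatives were other scalings (median-of-ratios, total-count, upper-quartile), log2(TPM + 1), 5 added to each count, only the most abundant transcript per gene, the read minimum dropped or set to 100, limits of 1.5-fold and 4-fold, an interval wholly beyond 2-fold, and length correction. Adding up the SPL13 copies was chosen after seeing the data: the pair had a log2 ratio of 0.97, still no member passed, and the median of 9 members was -0.15. The members' median kept its sign in every alternative run, between -0.39 (most abundant transcript) and -0.09 (total counts). No member was called except with a fold of 1.5 (1 higher, 1 lower) and with the most abundant transcript, where 1 was lower: SPL4, through a transcript listed at 0 in the jmj16-labelled library, so that its ratio is set by the added count and has no size. No single library could be left out and no paired analysis was possible because each genotype has 1 library.

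Over all measured genes, against 1239 higher and 1825 lower, log2(TPM + 1) gave 946 and 749 (55.8% of calls higher, against 40.4%), a minimum of 100 reads 747 and 1199, a fold of 1.5 2821 and 3355, a fold of 4 255 and 292, an interval beyond 2-fold 487 and 807, and length correction 1070 and 1134. Of the other SBP-box genes, total-count scaling gave 1 higher (SPL13B) and 0 lower, the most abundant transcript 2 lower, a fold of 1.5 1 higher and 3 lower, and log2(TPM + 1), a fold of 4, an interval beyond 2-fold and length correction 0 lower. For AP2-like factors a fold of 1.5 gave 3 higher and 1 lower and a fold of 4 gave 0 higher. A fold of 1.5 gave 1 higher flowering gene. For trichome repressors the higher count was 0 with an added count of 5, a minimum of 100 reads, a fold of 4, an interval beyond 2-fold and length correction. Their lower count was 0 with a minimum of 100 reads, a fold of 4 and an interval beyond 2-fold, and 2 with no minimum, a fold of 1.5 and length correction. For the microRNA machinery, the lower count was 0 with log2(TPM + 1) and a fold of 4 and 1 with length correction, and the higher count was 1 with the most abundant transcript, a fold of 1.5 and length correction. For MIR156 regulators the lower count was 3 with log2(TPM + 1), 0 with a fold of 4 and 1 with length correction, and the higher count was 1 with a fold of 1.5. The causes were not tested.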

Other observations

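Transcript models of the long SBP-box genes also differed in their estimated split. SPL1 had 506 reads on AT2G47070.1 and 438 on AT2G47070.2 in the jmj16-labelled library, against 684 and 241 in wild type. AT1G76580 had 74.3% of its reads on AT1G76580.3 in the jmj16-labelled library and 83.2% on AT1G76580.1 in wild type. SPL7 had 34.2% of its reads on AT5G18830.2 in the jmj16-labelled library and 14.5% in wild type. These models overlap within a gene, and the tables give no error for the split.

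Depth limits what can be read from the members. SPL5, with 16 reads in the jmj16-labelled library and 18 in wild type, has an interval from 3.27-fold lower to 1.33-fold higher, and SPL2, with 147 in the jmj16-labelled library and 103 in wild type, one from 1.26-fold lower to 1.34-fold higher. Any ratio within such an interval is compatible with the counts, and the interval is not a limit of detection. For SPL5 it also leaves out the error of the split with AT3G15260.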
